A study of Mus musculus with 454 samples.

Results

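The genes described here are 7 genes that medium spiny neurons, the projection neurons of the striatum, use to turn dopamine and adenosine signals into cyclic AMP signalling: Adora2a, Gpr6, Gnal, Adcy5, Rgs9, Pde10a and Ppp1r1b. They were given as a list of symbols, and each was found once among the 43346 genes of the count table through its Ensembl identifier. Their levels were followed over 454 bulk mRNA-seq libraries of mouse brain from 4 regions that the labels call Nac (112 libraries), AMY (115), PFC (112) and VTA (115), read here by their usual meanings of nucleus accumbens, amygdala, prefrontal cortex and ventral tegmental area. The series title names the medial amygdala and adolescent social isolation. Every region held the same 16 groups of 5 to 8 libraries: females or males, group-housed (G) or socially isolated (SI), given cocaine at 7.5 mg/kg or saline, on a schedule labelled acute (A) or chronic (CHR). All groups therefore include an injection, and the labels used here give neither the strain nor the age of the mice. The labels do not say which libraries come from separate mice. Every p-value here is therefore set by how far single libraries differ. The question put to these genes was whether they respond to housing and cocaine in Nac, and how much they vary among libraries of the other regions.

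Medium spiny neurons fall into a direct pathway that carries the D1 dopamine receptor and an indirect pathway that carries the D2 dopamine receptor and the adenosine receptor Adora2a. The D1 receptor and Adora2a act through the olfactory-type G protein on adenylyl cyclase 5, and the cyclic AMP made there activates protein kinase A. Phosphodiesterases break cyclic AMP down, a regulator of G protein signalling shortens the receptor signal, and DARPP-32 passes the kinase signal on by inhibiting protein phosphatase 1. In striatal tissue these components are abundant, and cocaine acts on the pathway by raising extracellular dopamine.

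The promoter sequences below are shown because cyclic AMP acts back on transcription through the factor CREB, whose classical site is TGACGTCA with the core TGACG. Each is the stretch of 250 bases before the RefSeq transcription start in GRCm38.p6, written 5' to 3' on the gene's own strand, with matches to the core TGACG on either strand in capitals.
Gpr6, chr10:41072291-41072540, minus strand: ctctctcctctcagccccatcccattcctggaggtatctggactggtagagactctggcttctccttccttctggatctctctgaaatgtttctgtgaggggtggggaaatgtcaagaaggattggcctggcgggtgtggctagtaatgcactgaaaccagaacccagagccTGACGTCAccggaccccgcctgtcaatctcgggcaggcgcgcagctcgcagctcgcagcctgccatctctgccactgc
Rgs9, chr11:109298182-109298431, minus strand: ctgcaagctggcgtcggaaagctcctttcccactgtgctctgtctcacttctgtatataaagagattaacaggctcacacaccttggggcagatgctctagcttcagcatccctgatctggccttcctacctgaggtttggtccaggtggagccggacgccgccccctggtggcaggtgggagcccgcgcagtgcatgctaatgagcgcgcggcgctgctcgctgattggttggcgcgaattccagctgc
Adcy5, chr16:35154614-35154863, plus strand: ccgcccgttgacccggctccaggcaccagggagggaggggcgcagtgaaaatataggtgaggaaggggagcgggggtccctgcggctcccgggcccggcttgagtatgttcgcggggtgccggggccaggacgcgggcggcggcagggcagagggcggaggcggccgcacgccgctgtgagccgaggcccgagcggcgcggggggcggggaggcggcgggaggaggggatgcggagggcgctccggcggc
The Gpr6 sequence held the whole palindrome TGACGTCA, in which the core occurs on both strands and overlaps itself, starting 78 bases before the transcription start. Of 32851 RefSeq promoters of mouse genes cut the same way, 508 (1.55%) held the palindrome and 5836 (17.8%) held the core. No match was found in the windows shown for Rgs9 and Adcy5, nor before either start listed for Pde10a. The GC content was 58.4% for Gpr6, 59.6% for Rgs9 and 78.0% for Adcy5, beside a median of 52.4% over those promoters. A match is a description of the letters and not a measured binding site. Promoters of Adora2a, Gnal and Ppp1r1b are not shown or described.

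The libraries held 11.21 to 52.34 megareads with a median of 21.71 megareads. Levels are in CPM, counts scaled to the library's total after TMM adjustment, and 1 CPM stood for about 22 reads in the median library. Marker genes followed the region labels: the mean log2 CPM of 8 cortical glutamatergic markers was 6.90 in PFC and 2.03 in Nac, that of 8 dopamine neuron markers was 7.27 in VTA and 0.25 in Nac, and that of 14 other striatal neuron markers was 8.31 in Nac and 4.14 to 4.96 elsewhere. In 13 libraries (7 AMY, 4 VTA, 2 Nac) the overall profile or the choroid plexus genes stood apart from the rest of the region. Transcripts of the other sex made up 5% or more of the expected level in 3 libraries, which were the AMY library of isolated females with acute cocaine, replicate 1 (5.82%), the Nac library of group-housed females with chronic cocaine, replicate 2 (8.1%), and the Nac library of isolated females with chronic cocaine, replicate 6 (33.9%). Calls of the 7 genes that changed without such libraries are named where they are given. Sample titles carry numbers that begin near 500, 1000, 1100 or 1200, and these number series were not spread evenly over the treatments. Chronic saline occurred in series 500 and 1200, acute saline in 1000 and 1100, acute cocaine in 1000 and 1100, and chronic cocaine in 1000 and 1200. What the series stand for is not given in the labels.

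All 7 genes were higher in Nac than in each of the other 3 regions. The median log2 difference over the 7 genes was 3.60 against AMY, 3.52 against PFC and 4.61 against VTA, while the median over all 18627 genes tested was 0.04, 0.06 and 0.02. With this many libraries, 46.5%, 48.8% and 46.3% of all genes tested were higher in Nac at an adjusted p under 0.05 (edgeR's quasi-likelihood test), so a call alone does not set the genes apart and the size of the difference carries the description. The weakest adjusted p among the 21 comparisons was 1.05e-137. In bulk tissue, fewer cells of a type and less RNA per cell cannot be told apart.

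**Figure D1:**
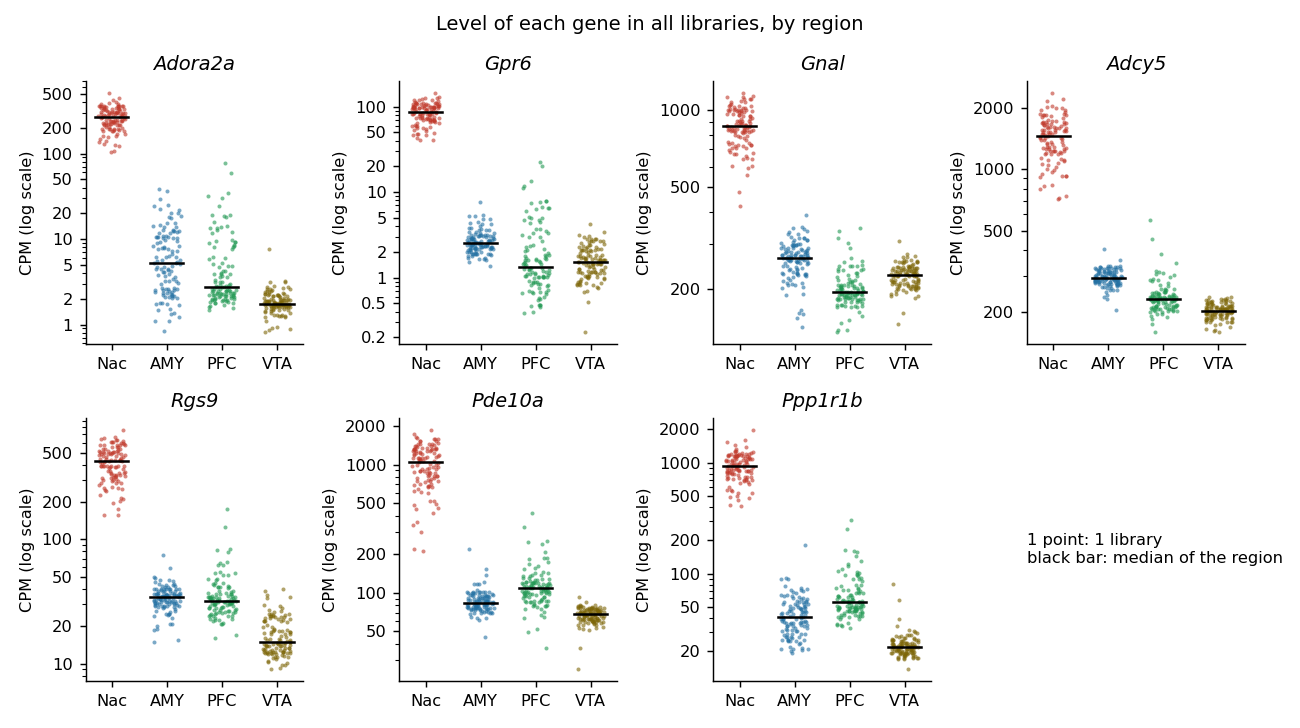
Level of each of the 7 genes in all 454 libraries, 1 point per library, in CPM on a log axis, with a black bar at the median of the region. The Nac libraries sit above nearly all others, and Adora2a and Gpr6 trail upward in PFC, with Adora2a also spread in AMY.

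Adora2a (ENSMUSG00000020178, chr10:75316877-75334784, plus strand) encodes the adenosine receptor of the indirect pathway. Its level in Nac libraries was 104.9 CPM at the lowest, 265.4 at the median and 510.1 at the highest. The medians elsewhere were 5.26 CPM in AMY (0.844 to 38.9), 2.75 in PFC (1.48 to 77.1) and 1.76 in VTA (0.812 to 7.59). No library of another region reached the lowest Nac library. The log2 difference of Nac was 5.14 (SE 0.13) from AMY, 5.58 (SE 0.13) from PFC and 7.13 (SE 0.15) from VTA, the widest regional contrast of the 7 genes against each region. Gpr6 (ENSMUSG00000046922, chr10:41069977-41072285, minus strand) encodes an orphan receptor that raises cyclic AMP without added ligand and is found in indirect-pathway neurons. It ranged from 40.7 to 144.4 CPM in Nac with a median of 87.7, while its medians were 2.54 CPM in AMY, 1.33 in PFC and 1.51 CPM in VTA. The highest value outside Nac was 22.4 CPM, in a PFC library, and again no other region overlapped Nac. The log2 differences were 4.97 (SE 0.09), 5.20 (SE 0.09) and 5.74 (SE 0.10) from AMY, PFC and VTA.

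Gnal (ENSMUSG00000024524, chromosome 18) encodes the olfactory-type G protein alpha subunit that couples dopamine D1 and adenosine receptors to the cyclase. It was the least region-bound of the 7 genes: 420.9 to 1163.0 CPM in Nac with a median of 863.3, against medians of 265.0 CPM in AMY, 194.5 in PFC and 227.2 in VTA, and log2 differences of 1.73, 2.09 and 1.93 (SE 0.03 each). Its exons share 852 bases with Mppe1 on the opposite strand, and as the strand setting of the counting is not given in the sources used here, its counts may include reads of that gene. Adcy5 (ENSMUSG00000022840, chr16:35154877-35305738, plus strand) encodes adenylyl cyclase 5, the main cyclase of these neurons. Its Nac libraries held 713.5 to 2355.1 CPM with a median of 1458.7, and the medians elsewhere were 293.4 CPM in AMY, 231.8 in PFC and 202.9 CPM in VTA. The Adcy5 log2 difference was 2.27 from AMY, 2.57 from PFC and 2.81 from VTA (SE 0.03 each). Neither gene overlapped between Nac and any other region. For all statements on overlap with Nac, the share over all genes is not given here, so they describe single genes only.

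Rgs9 (ENSMUSG00000020599, chr11:109225355-109298129, minus strand) encodes a regulator of G protein signalling that speeds the shut-off of receptor signals. In Nac it lay between 156.3 and 762.9 CPM around a median of 424.4, and the medians elsewhere were 34.4 CPM in AMY, 31.8 in PFC and 14.9 CPM in VTA. The log2 differences were 3.60, 3.52 and 4.61 (SE 0.06 each). A single PFC library, at 174.4 CPM, lay above the lowest Nac library. Pde10a (ENSMUSG00000023868, chr17:8525372-8986648, plus strand) encodes the phosphodiesterase that breaks down cyclic AMP and cyclic GMP in medium spiny neurons. It had the widest range in Nac, from 212.1 to 1872.7 CPM around a median of 1049.3, and medians of 84.0 CPM in AMY, 108.6 in PFC and 68.7 in VTA. For Pde10a, 1 AMY library and 5 PFC libraries reached the lowest Nac library, and the log2 differences were 3.54, 3.12 and 3.91 (SE 0.06 each). Ppp1r1b (ENSMUSG00000061718, chr11:98348404-98357796, plus strand) encodes DARPP-32. Its 411.0 to 1986.5 CPM in Nac (median 932.3) stood against medians of 40.6 CPM in AMY, 55.2 in PFC and 21.9 in VTA, with log2 differences of 4.43 (SE 0.08), 3.84 (SE 0.07) and 5.35 (SE 0.08) and no overlap. Its exons share 460 bases with 1700003D09Rik on the opposite strand, with the same uncertainty as for Gnal.

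Levels of different genes were compared per kilobase of exon, which changed their order. In Nac, Ppp1r1b had the highest median at 318.4 CPM per kilobase and Adcy5 came next at 203.0. Adora2a (86.7), Pde10a (81.7) and Gnal (77.3) followed close to each other, then Rgs9 at 66.4 and Gpr6 at 49.1. In AMY, PFC and VTA the highest median per kilobase was that of Adcy5, at 40.8, 32.3 and 28.2, and Gnal came next at 23.7 in AMY and 20.3 in VTA. In PFC, Ppp1r1b (18.9) and Gnal (17.4) lay close to each other behind Adcy5. Adora2a was at 1.72 CPM per kilobase in AMY, 0.899 in PFC and 0.576 in VTA.

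Within Nac the 7 genes moved together over the 112 libraries. Over the 21 pairs of genes, Pearson's r of log2 CPM ran from 0.56 (Ppp1r1b with Gnal) to 0.96 (Adora2a with Ppp1r1b) with a median of 0.79. Each gene also followed the mean of the 14 other striatal neuron markers: r was 0.94 for Gpr6, 0.93 for Adora2a, 0.91 for Ppp1r1b, 0.88 for Rgs9 and Adcy5, 0.82 for Pde10a and 0.79 for Gnal, and Spearman's rho was between 0.84 (Gnal) and 0.95 (Gpr6). Each permutation p was 1e-05, the smallest that 100000 resamples can give, and the values adjusted over the 28 relations computed in 4 regions were 1e-05 for r and 1.33e-05 for rho. Without the 2 libraries farthest from the median of the markers, r remained between 0.78 and 0.94. Within the number series it was 0.46 to 0.82 in series 500 and 0.83 to 0.97 in the others. Points share library depth and tissue content, so these values describe the libraries. The genes most like the mean of the 7, among 13289 genes with a mean of at least 1 CPM, included Pde1b (r = 0.98), Drd1 (0.96), Scn4b (0.96) and Chst15 (0.95). The mean of the 7 genes ran opposite to astrocyte markers (r = -0.63) and to medial amygdala and hypothalamus markers (r = -0.58) over the same libraries, and their part in the results was not tested.

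No effect of social isolation on these genes was detected in Nac. Adora2a ranged from 104.9 to 510.1 CPM over 56 isolated libraries (median 264.6) and from 108.2 to 449.5 CPM over 56 group-housed libraries (median 269.9). The medians of Ppp1r1b were 918.9 CPM in isolated and 964.3 in group-housed libraries, and those of Pde10a were 1049.4 and 1046.9. The arms overlapped almost completely. The log2 differences (isolated minus group-housed) lay between -0.06 and -0.01 over the 7 genes, with standard errors of 0.05 to 0.10, and the 95% intervals ran from -0.27 to 0.14 for Pde10a and from -0.16 to 0.14 for Adora2a. None of the 7 genes was called (edgeR's quasi-likelihood test, adjusted p = 1 for each), none had an unadjusted p under 0.05, and limma voom and DESeq2 called none. Over all genes 0.0% were called, 421 of 17266 at an unadjusted p under 0.05.

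Acute cocaine also left the 7 genes without a called change in Nac. The median of Adora2a was 236.6 CPM over 28 libraries with acute cocaine (124.2 to 307.2) and 221.0 over 27 with acute saline (104.9 to 351.8). Rgs9 had medians of 355.0 and 387.2 CPM, and Pde10a of 853.0 and 931.6. The arms overlapped for every gene, and the log2 differences ran from -0.16 (Pde10a) to 0.07 (Ppp1r1b), with an adjusted p of 0.996 each. No gene of the 7 had an unadjusted p under 0.05, none was called by limma voom or DESeq2, and 0.0% of all genes were called, with 894 of 17266 at an unadjusted p under 0.05.

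Split by housing, the acute differences pointed in opposite directions without passing the test. In group-housed mice all 7 estimates lay above 0, from 0.10 (Gnal) to 0.23 (Ppp1r1b), and in isolated mice all 7 lay below 0, from -0.45 (Pde10a) to -0.10 (Ppp1r1b). Adora2a had a median of 251.3 CPM under cocaine and 214.1 under saline in group-housed mice, where 11 of 14 cocaine libraries lay above the saline median. In isolated mice its medians were 220.6 and 256.8 CPM, and 4 of 14 cocaine libraries lay above the saline median. Pde10a showed the widest gap, with 770.5 CPM under cocaine and 1197.2 under saline in isolated mice, 2 of 14 cocaine libraries above the saline median and an unadjusted p of 0.0337 (edgeR, adjusted p = 0.851). The difference of the 2 responses (isolated minus group-housed) was -0.59 for Pde10a (SE 0.30, adjusted p = 0.957), -0.40 for Rgs9, -0.38 for Adora2a, -0.35 for Adcy5, -0.33 for Ppp1r1b, -0.26 for Gpr6 and -0.24 for Gnal (edgeR, adjusted p 0.957 to 0.971). The shared sign is not independent evidence, since the 7 genes moved together over the libraries. The share of all genes called was 0.0174% for group-housed mice, 0.0% for isolated mice and 0.0% for the difference, which 889 of 17266 genes passed at an unadjusted p under 0.05.

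**Figure D2:**
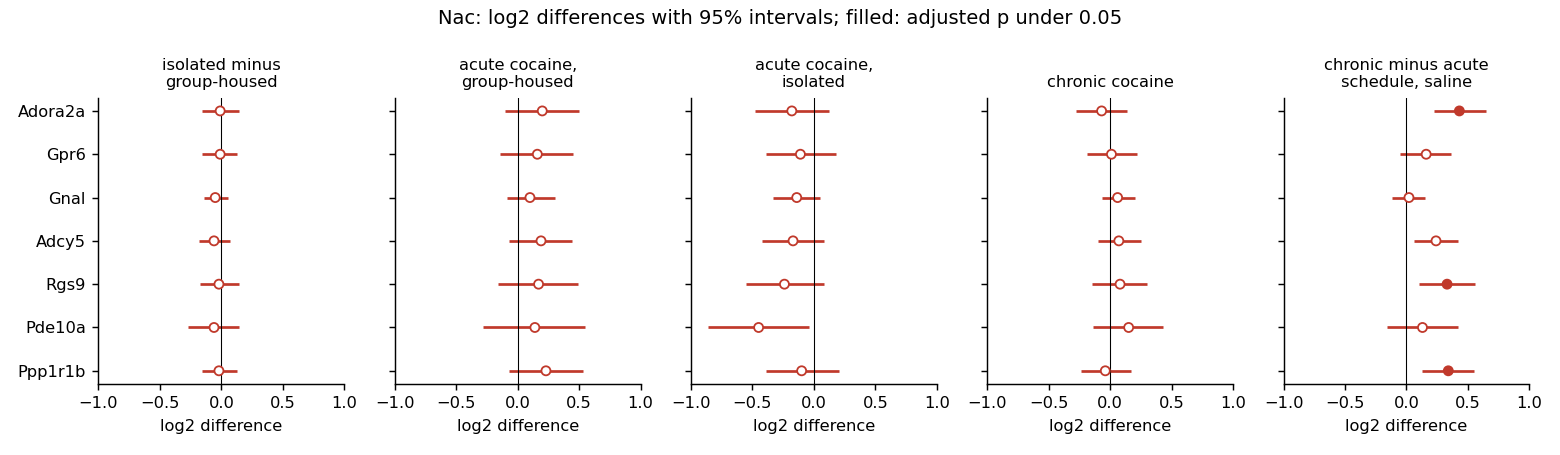
Log2 differences of the 7 genes in Nac with 95% intervals for 5 comparisons (edgeR); a filled circle marks an adjusted p under 0.05. Adora2a, Rgs9 and Ppp1r1b are filled between the schedules under saline, and no gene is filled for housing or cocaine.

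No member was called for chronic cocaine in Nac. The medians under chronic cocaine (29 libraries) and chronic saline (28 libraries) were 294.0 and 306.1 CPM for Adora2a, 98.3 and 93.2 for Gpr6, 889.6 and 863.5 for Gnal, 1655.6 and 1510.0 for Adcy5, 492.2 and 450.3 for Rgs9, 1197.7 and 1095.8 for Pde10a, and 1010.1 and 1031.8 for Ppp1r1b. The arms overlapped for each gene, and the log2 differences lay between -0.07 (Adora2a, 95% interval -0.28 to 0.14) and 0.15 (Pde10a, -0.14 to 0.43), with adjusted p-values of 0.582 to 0.952 (edgeR). None had an unadjusted p under 0.05 and neither limma voom nor DESeq2 called one, beside 0.151% of all genes called. Without the 2 libraries with transcripts of the other sex the range was -0.03 to 0.21, again with no call. In isolated mice alone, chronic cocaine called 10.4% of all genes (1800 of 17266) and 0 of the 7. Among so few genes that count does not set the members apart from the background. Their differences ran from -0.10 (Adora2a) to 0.25 (Pde10a), with edgeR adjusted p-values of 0.394 to 0.896 and no unadjusted p under 0.05. The other 53 genes listed for the pathway (receptors, G proteins and their regulators, cyclases and kinase subunits, phosphodiesterases, phosphatases and their inhibitors) had 51 members tested, of which none was called for housing, acute cocaine or chronic cocaine over all mice in Nac. In isolated mice alone, chronic cocaine called 4 of the 51, beside 10.4% of all genes. The phosphodiesterase gene Pde4a was higher. Gnai1 (an inhibitory G protein alpha subunit), Prkar1a (a regulatory subunit of protein kinase A) and Ppp1cb (a catalytic subunit of protein phosphatase 1) were lower. Chronic cocaine is partly confounded with the number series in all of these comparisons. Within series 1200 alone, over both housings (18 saline and 8 cocaine libraries), 0 of the 7 members and 3 of 17729 genes were called.

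The one contrast in Nac with called members was the schedule among saline libraries. Adora2a was 306.1 CPM at the median over 28 libraries on the chronic schedule (157.3 to 510.1) and 221.0 over 27 on the acute schedule (104.9 to 351.8), and 24 of 28 chronic libraries lay above the acute median. The log2 difference was 0.43 (SE 0.11, edgeR adjusted p = 0.00241). Ppp1r1b rose by 0.34 (SE 0.11, adjusted p = 0.0171; medians 1031.8 and 863.5 CPM, 18 of 28 above) and Rgs9 by 0.33 (SE 0.12, adjusted p = 0.0338; medians 450.3 and 387.2 CPM, 19 of 28 above). The other members gave 0.24 for Adcy5 (adjusted p = 0.0515), 0.16 for Gpr6, 0.13 for Pde10a and 0.02 for Gnal. The arms overlapped for each gene. Of all genes tested, 11.0% were higher and 9.86% lower on the chronic schedule, so 3 of 7 is read against a wide background. Of the 51 pathway genes, 3 were higher and 4 lower. Ppp1r1a, an inhibitor of protein phosphatase 1 related to DARPP-32, rose by 0.32, Ppp3ca, a calcineurin catalytic subunit, by 0.30, and Pde1b, a calcium-dependent phosphodiesterase, by 0.26. The D3 dopamine receptor gene Drd3 fell by 0.36, along with Adcy2, Prkar2a and Pde4a.

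The schedule cannot be told apart from the number series, since no series held both acute and chronic saline libraries. Mean Adora2a in Nac was 368.3 CPM (SD 82.7, n = 10) in series 500, 274.2 (SD 63.1, n = 26) in series 1200, 264.6 (SD 68.9, n = 48) in series 1000 and 221.9 (SD 64.4, n = 28) in series 1100. With the series as a term, the Adora2a difference was 0.31 (SE 0.21, adjusted p = 0.951) and 0 of the 7 genes were called. Without the libraries that carried transcripts of the other sex, 4 were called, as they were without the libraries that stand apart, the added gene being Adcy5 (adjusted p = 0.0426 and 0.035), which DESeq2 and relative log expression factors also called. With no filter on low counts Rgs9 was not called (adjusted p = 0.0761), which left 2 of 7. Of the 14 other striatal neuron markers, 4 were called higher and 0 lower on the chronic schedule, with a median difference of 0.17. Among the other cell markers, 3 of 5 astrocyte genes and 1 of 5 interneuron genes were lower. Higher were 2 of 4 microglial genes and 1 of 4 endothelial genes. Gja1, Aqp4 and Slc1a3 fell by 0.23, 0.25 and 0.15, and their part in the result was not tested.

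In PFC the 7 genes were low in most libraries and high in a minority. The SD of log2 CPM of Adora2a (1.25) and Gpr6 (1.25) was larger than that of 99.4% of the genes tested there, followed by Ppp1r1b at 0.589, Rgs9 at 0.528 and Pde10a at 0.494 (90.8%, 87.0% and 84.9%). Adcy5 (0.247) and Gnal (0.234) lay near the middle of all genes. Removing the mean of each group left Adora2a at 1.17 and Gpr6 at 1.22, so the spread was mainly within groups. Adora2a exceeded 4 times the PFC median in 18 of 112 libraries, spread over 8 of the 16 groups. These were 9 of 28 libraries with chronic cocaine, 2 of 26 with chronic saline, 3 of 30 with acute cocaine and 4 of 28 with acute saline, and they were 12 of 56 male and 6 of 56 female libraries.

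Among PFC libraries the members rose with Adora2a at 0.707 to 1.16 times their Nac proportions. Over the PFC libraries, 1 CPM more Adora2a came with 0.327 CPM more Gpr6 (SE 0.0069), which is 1.01 times the ratio of their Nac means. The slope was 1.03 times the Nac ratio for Ppp1r1b, 1.16 for Rgs9, 1.15 for Pde10a, 0.80 for Adcy5 and 0.707 for Gnal. Without the 2 highest libraries these became 1.15, 1.14, 1.13, 1.25, 0.76 and 0.914, in the same order from Gpr6 to Gnal. The dopamine receptor genes gave 0.872 (Drd1, direct pathway) and 1.24 (Drd2, indirect pathway). Pairs of the 7 genes had a median r of 0.80 in PFC, from 0.62 to 0.92. Correlations with the 14 other striatal markers were 0.97 for Adora2a, 0.95 for Ppp1r1b, 0.93 for Gpr6, 0.92 for Rgs9, 0.83 for Adcy5, 0.78 for Pde10a and 0.71 for Gnal, with rho from 0.53 (Pde10a) to 0.87 (Gpr6) and a permutation p of 1e-05 each. Without the 2 libraries farthest from the median r was 0.64 to 0.97. In series 1000, 1100 and 1200 r lay between 0.53 and 0.98, but in the 10 libraries of series 500, none of which was high, it ran from -0.38 (Gnal) to 0.45 (Ppp1r1b), so there the relation did not hold. The genes most like the 7 were Drd2 (r = 0.94), Syndig1l (0.93), Pou3f4 (0.93), Pde1b (0.92) and Penk (0.92). The mean of the 7 ran against cortical glutamatergic markers (r = -0.69) and with oligodendrocyte markers (r = 0.74).

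**Figure D3:**
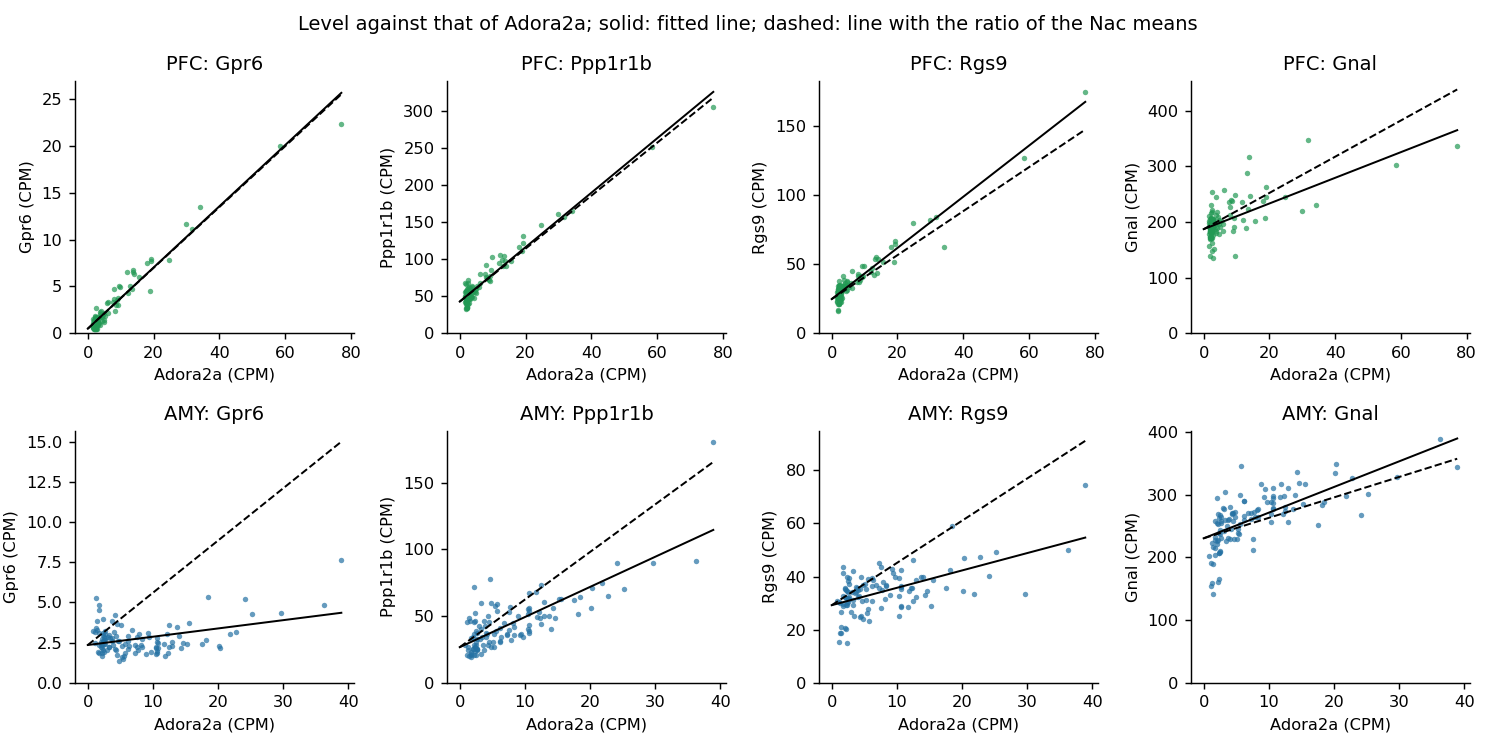
Level of 4 of the genes against that of Adora2a (both in CPM) in PFC (upper row) and AMY (lower row), 1 point per library, with the fitted line (solid) and a line from the same intercept with the ratio of the Nac means (dashed). In PFC both lines nearly coincide for Gpr6 and Ppp1r1b, while in AMY the fitted line for Gpr6 is at 0.159 of the Nac ratio.

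The members were higher after chronic cocaine in PFC, by the estimates of all libraries. Adora2a had a median of 4.52 CPM over 28 chronic cocaine libraries (1.92 to 77.1) and 2.38 over 26 chronic saline libraries (1.62 to 31.6), with 22 of 28 above the saline median. The log2 difference of the fitted means was 1.18 for Adora2a (SE 0.34, edgeR adjusted p = 0.0233), 1.03 for Gpr6 (SE 0.34, 0.0459), 0.50 for Rgs9 (SE 0.14, 0.0233), 0.49 for Ppp1r1b (SE 0.16, 0.0439) and 0.22 for Adcy5 (SE 0.06, 0.0241). Pde10a gave 0.23 (adjusted p = 0.278) and Gnal 0.16 (0.0789). Thus 5 of 7 were called higher, beside 3.93% of all genes, and the median was 0.49 over the 7 and 0.002 over all genes. The arms overlapped for every member, and DESeq2 called the same number while limma voom called 2. In isolated mice 6 of 7 were called higher (background 2.34%), with Adora2a at 1.91 (SE 0.50, adjusted p = 0.0191), and in group-housed mice 0 were called (background 0.0%), with estimates of 0.02 to 0.45 and none at an unadjusted p under 0.05. The difference between housings was 1.45 for Adora2a (SE 0.67, adjusted p = 1) and was called for none of the 7, though 4 had an unadjusted p under 0.05 (background 0.0%). A test that the responses of the 4 combinations of sex and housing are equal also called none (background 0.0%, unadjusted p 0.00181 to 0.067, 6 of 7 under 0.05). limma voom and DESeq2 called none for the difference between housings.

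By its estimates the difference was largest in isolated males. In group-housed males the 7 estimates ran from -0.17 to 0.08, in group-housed females from 0.03 to 1 and in isolated females from -0.09 to 0.54, with no unadjusted p under 0.125. Adora2a in their 7 chronic cocaine libraries, replicates 1 to 7, was 4.24, 2.75, 58.5, 77.1, 18.8, 13.7 and 2.60 CPM, and in the 7 chronic saline libraries 2.98, 1.93, 2.10, 6.02, 1.62, 2.44 and 1.77 CPM. Replicates 3 and 4 with cocaine stood far above, replicates 5 and 6 were intermediate, and 3 cocaine libraries lay within the saline range. Gpr6 followed the same order at 1.69, 0.451, 20.0, 22.4, 4.53, 6.54 and 1.64 CPM, against 0.552 to 2.11 CPM with saline. Ppp1r1b was 47.9, 48.4, 251.0, 305.4, 110.2, 96.6 and 50.8 CPM, against 34.4 to 67.7 CPM. Rgs9 was 30.8, 28.1, 126.7, 174.4, 51.5, 43.8 and 27.1 CPM, against 17.0 to 32.9 CPM. The same pair of libraries was highest for each of these genes. Pde10a was 99.2, 86.3, 328.8, 418.5, 143.9, 145.5 and 84.6 CPM, against 84.5 to 128.6 CPM with saline. Adcy5 was 256.0, 209.2, 453.3, 566.2, 258.4, 286.3 and 228.3 CPM, against 196.5 to 248.1 CPM. Gnal was 209.3, 177.1, 302.0, 337.1, 207.5, 316.6 and 194.8 CPM, against 178.1 to 211.2 CPM, and here replicate 6 joined the high pair.

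**Figure D4:**
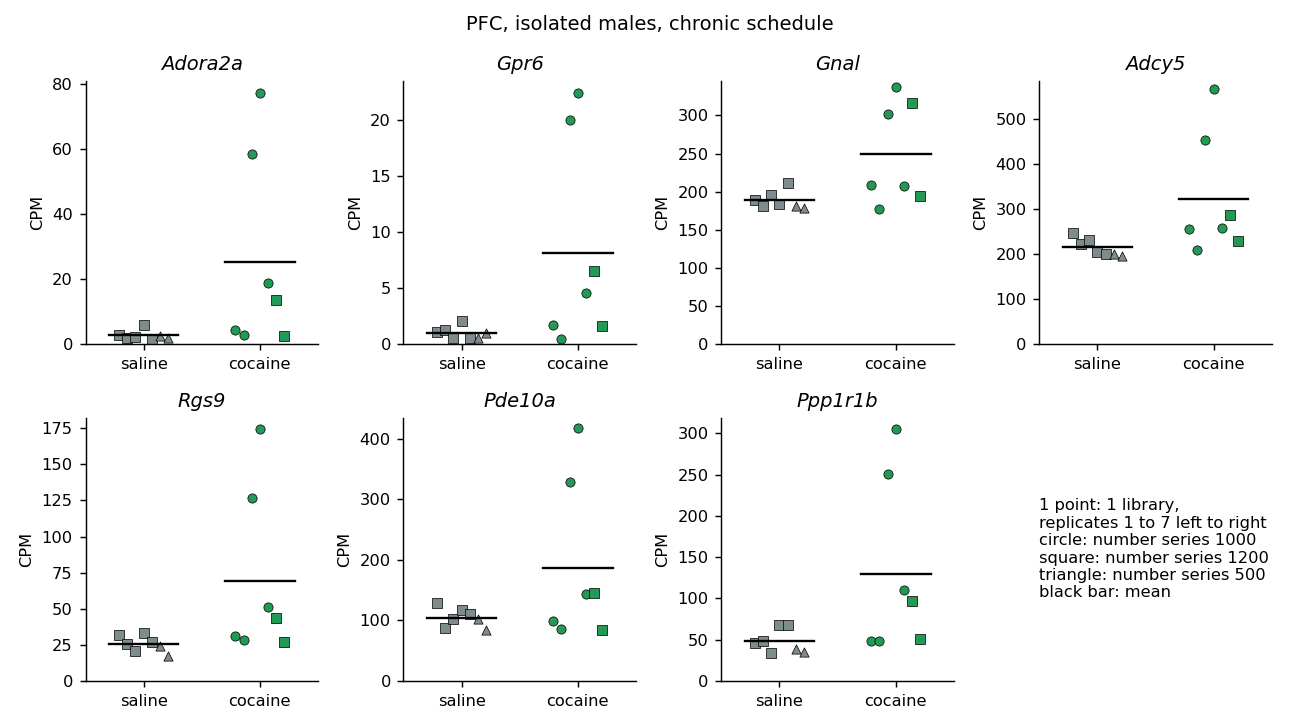
Level of the 7 genes (CPM) in the PFC libraries of isolated males on the chronic schedule, replicates 1 to 7 from left to right, with the number series as the symbol and the mean as a bar. Replicates 3 and 4 with cocaine are the highest for 6 of the 7 genes, and for Gnal replicate 6 lies above replicate 3.

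Over these 14 libraries the log2 difference was 3.28 for Adora2a (SE 0.68, edgeR adjusted p = 0.00452), 3.01 for Gpr6 (SE 0.68, 0.00568), 1.46 for Ppp1r1b (SE 0.32, 0.00563), 1.45 for Rgs9 (SE 0.28, 0.00375), 0.85 for Pde10a (SE 0.26, 0.0324), 0.60 for Adcy5 (SE 0.13, 0.00452) and 0.41 for Gnal (SE 0.12, 0.0201). All 7 were called higher, beside 4.03% of all genes, with the spread estimated over all PFC libraries. The excess of replicate 3 over the PFC median came to 21.0% of the Nac median for Adora2a, 21.3% for Gpr6, 21.0% for Ppp1r1b, 22.3% for Rgs9 and 21.0% for Pde10a, and to 15.2% for Adcy5 and 12.5% for Gnal. In replicate 4 the excess was 28.0%, 24.0%, 26.8%, 33.6% and 29.5% for the same 5 genes in that order, 22.9% for Adcy5 and 16.5% for Gnal. As a share of the Nac median, the excess was thus lower for Adcy5 and Gnal, the 2 genes with the weakest regional contrast, than for the other 5. These shares describe the excess over the PFC median and not the whole level. Other striatal neuron markers were called higher in 12 of 14 cases with a median of 1.13, and their summed level was 506.3 to 2347.2 CPM with cocaine and 494.7 to 605.6 with saline.

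Markers of some other cells also differed, in both directions. Of 5 astrocyte, 4 microglial and 4 endothelial markers 0 were called, with median log2 differences of 0.25, 0.05 and 0.13. Of the astrocyte markers, 3 had an unadjusted p under 0.05 (edgeR). The main vesicular glutamate transporter of cortical neurons, Slc17a7, was at 1108.1 and 1203.9 CPM in replicates 3 and 4 and between 1583.7 and 1990.5 CPM in the saline libraries, and fell by 0.30 (adjusted p = 0.0236). Of 8 cortical glutamatergic markers 3 were called lower, and their summed level was 1562.7 to 2423.2 CPM with cocaine and 2239.9 to 2708.0 with saline. The myelin gene Mbp was at 4037.4 and 3869.6 CPM in these 2 libraries and at 543.2 to 2588.6 CPM with saline, yet 0 of 5 oligodendrocyte markers were called (median 0.92, each with an unadjusted p under 0.05). Choroid plexus genes were called higher in 3 of 6 tested cases, dopamine neuron genes in 3 of 5, central amygdala and intercalated cell genes in 2 of 6 and interneuron genes in 1 of 5 (Chat, which marks cholinergic neurons). Their part in the result was not tested. Of the 51 pathway genes, 6 were higher (background 4.03%) and 4 lower (background 2.88%). Those higher included the dopamine receptor genes Drd2 (2.98), Drd1 (1.01) and Drd3 (4.75), the G protein gamma subunit gene Gng7 (1.01) and Pde1b (0.70). Rgs7, Adcy2, Prkar1b and Rgs4 fell by 0.27, 0.33, 0.29 and 0.52.

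The calls varied with the libraries kept and with the number series. Replicates 3 and 4 of the isolated males with cocaine were picked for their high levels and left out of the cocaine arm only. High saline libraries stayed in, so this choice by itself lowers the differences. Without both, 0 of 7 members were called over all mice, in isolated mice or in isolated males, and the median log2 difference was 0.27, 0.29 and 0.51. The calls over all genes fell as well, to 351, 71 and 0 of 17074. Adora2a then stood at 0.78 over all mice (SE 0.32, edgeR adjusted p = 0.17) and at 1.66 in isolated males (SE 0.68, adjusted p = 0.359). Without replicate 4 alone the count over all mice was 0, beside 845 of 16992 genes. Without replicate 3 alone it was 1, beside 702 of 16996 genes. In isolated males the counts were then 4 (beside 262 of 16992 genes) and 5 (beside 136 of 16996). Leaving out saline replicate 3, 6 or 7 of the isolated males gave 3 over all mice. Beside these stood 1225 of 16996, 857 of 17001 and 748 of 16999 genes. In isolated males, 5 of 7 cocaine libraries but no saline library belonged to series 1000, and with the series as a term Adora2a over all mice was at 0.60 (SE 0.51, adjusted p = 1) and 0 members were called. Within series 1200, the only one with both treatments (16 saline and 8 cocaine libraries), the differences ran from 0.02 to 0.46. There 0 members were called, beside 1 of 17465 genes, so that count does not set the members apart. With the level of the other striatal markers as a covariate 0 were called, and Pde10a (-0.13), Gpr6 (-0.09) and Ppp1r1b (-0.03) changed sign. Of those 14 markers 9 were themselves called higher over all mice. The covariate therefore takes up a difference shared with the members, whatever its origin, and no conclusion is drawn from that fit.

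**Figure D5:**
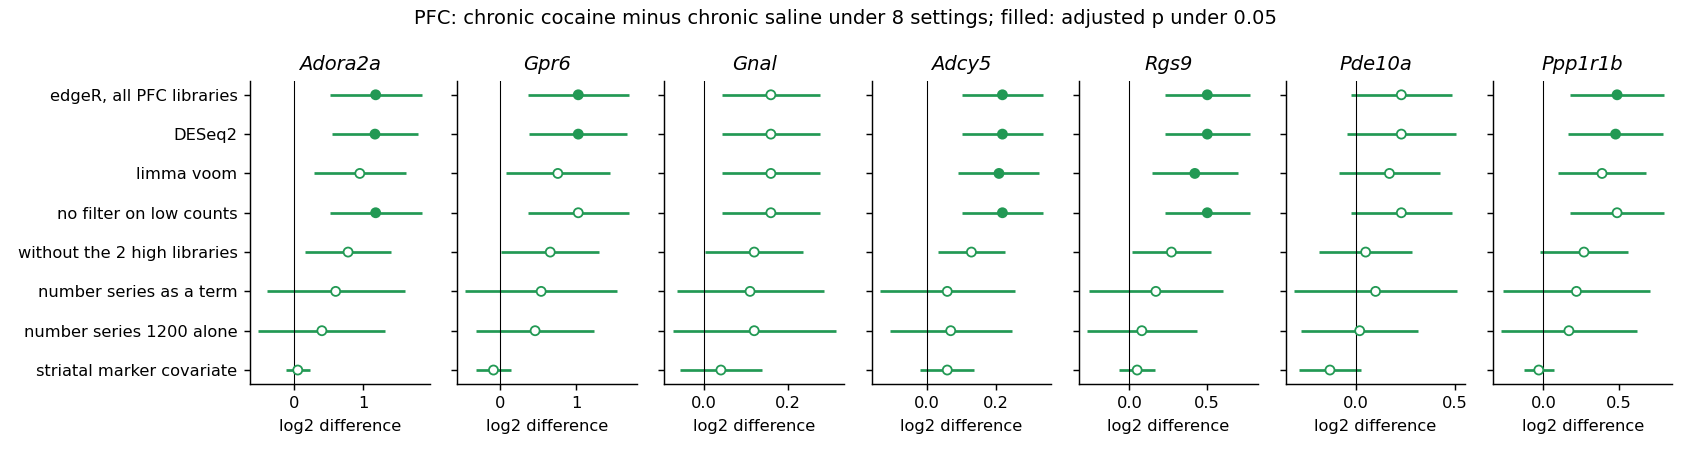
Log2 difference of each gene between chronic cocaine and chronic saline in PFC with its 95% interval under 8 settings; a filled circle marks an adjusted p under 0.05. Fits that leave out the 2 high libraries, use or stay within number series, or add the striatal marker level have no filled circle. Of the 14 striatal markers 9 were themselves called higher in this comparison.

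Housing, acute cocaine and the schedule called no member in PFC. Log2 differences ran from -0.02 to 0.12 for housing, from -0.09 to 0.08 for acute cocaine and from -0.23 to 0.01 for the schedule under saline, with no unadjusted p under 0.05 (edgeR), and limma voom and DESeq2 called none. The background was 0.0%, 0.0647% and 23.3% of all genes.

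In AMY the receptor pair came apart. Adora2a varied as widely as in PFC (SD of log2 CPM 1.25, larger than 99.3% of genes tested), but Gpr6 had an SD of 0.42, Ppp1r1b of 0.573, Rgs9 of 0.341, Pde10a of 0.268, Gnal of 0.251 and Adcy5 of 0.133. Adora2a exceeded 4 times the AMY median in 7 of 115 libraries from 6 of the 16 groups. Relative to the ratio of Nac means, the slope on Adora2a was 0.159 for Gpr6, 0.633 for Ppp1r1b, 0.412 for Rgs9, 0.374 for Pde10a and 0.326 for Adcy5, and it was 1.25 for Gnal. Without the 2 highest libraries it was 0.0675 for Gpr6, 0.524 for Ppp1r1b, 0.33 for Rgs9, 0.183 for Pde10a, 0.229 for Adcy5 and 1.34 for Gnal. Pairs of the 7 genes had a median r of 0.37, from -0.05 to 0.75. Against the other striatal markers r was 0.83 for Adora2a and 0.81 for Gnal, 0.76 for Rgs9, 0.56 for Adcy5 and 0.54 for Ppp1r1b (permutation p = 1e-05 each), and 0.26 for Gpr6 (p = 0.00525, adjusted 0.00612) and 0.22 for Pde10a (p = 0.0204, adjusted 0.0228). Spearman's rho was 0.88, 0.71, 0.60, 0.48, 0.52, 0.19 and 0.19 in that order. Without the 2 farthest libraries r was 0.14 for Gpr6 and 0.12 for Pde10a, while without the libraries that stand apart it was 0.41 and 0.47, so those 2 values depend on which libraries are left out. Within the number series r ran from 0.67 to 0.87 for Adora2a, 0.34 to 0.85 for Gnal, 0.27 to 0.79 for Rgs9, 0.33 to 0.62 for Adcy5, 0.22 to 0.67 for Ppp1r1b, 0.17 to 0.57 for Gpr6 and 0.14 to 0.68 for Pde10a. The genes most like the 7 included Drd2 (r = 0.77), Cd4 (0.76), Syndig1l (0.71) and Nexn (0.71), and central amygdala and intercalated cell markers followed the mean of the 7 with r = 0.60.

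A single AMY library was highest for 6 of the 7 genes: isolated males with chronic cocaine, replicate 1. It held 38.9 CPM of Adora2a, 7.64 of Gpr6, 74.4 of Rgs9, 219.2 of Pde10a, 408.1 of Adcy5 and 180.9 of Ppp1r1b, and 343.8 of Gnal, where another library reached 388.9. Its excess over the AMY median came to 12.7% of the Nac median for Adora2a, 15.1% for Ppp1r1b, 12.9% for Pde10a, 9.4% for Rgs9, 9.1% for Gnal, 7.9% for Adcy5 and 5.8% for Gpr6. No comparison called a member in AMY. The log2 differences were -0.08 to 0.10 for housing (background 0.0%), -0.17 to 0.05 for acute cocaine (0.0%), -0.16 to 0.18 for chronic cocaine (0.0518%) and -0.05 to 0.38 for the schedule under saline (20.4%). Over these, 1 unadjusted p was under 0.05, that of Pde10a for housing (0.10, edgeR adjusted p = 0.995), and limma voom and DESeq2 called none. For Adora2a the 95% interval of the chronic cocaine difference reached down to -0.77.

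In VTA, where the median was the lowest of the 4 regions for 5 of the 7 genes, Rgs9 and Gpr6 were lower and Gnal higher on the chronic schedule under saline. Rgs9 was 13.2 CPM at the median over 29 chronic libraries (10.2 to 18.5) and 23.7 over 28 acute libraries (9.80 to 40.1), and no chronic library lay above the acute median. The log2 difference was -0.79 (SE 0.09, edgeR adjusted p = 1.39e-12). Gpr6 had medians of 1.27 and 2.17 CPM, 2 of 29 chronic libraries above the acute median and a difference of -0.60 (SE 0.14, adjusted p = 0.000214). Gnal had medians of 240.2 and 211.5 CPM, 24 of 29 above, and a difference of 0.11 (SE 0.04, adjusted p = 0.00846). These were 2 of 7 lower beside 22.2% of all genes and 1 of 7 higher beside 21.4%, so the counts do not set the members apart. The schedule is again confounded with the number series: with the series as a term only Rgs9 was called (-0.93, SE 0.18, adjusted p = 0.000207), while Gpr6 gave -0.71 (adjusted p = 0.104) and Gnal 0.21 (0.0622). Dopamine neuron markers were higher in 6 of 8 cases and microglial markers in 4 of 4 on the chronic schedule. Lower were 4 of 8 cortical glutamatergic markers, 4 of 6 medial amygdala and hypothalamus markers, 3 of 6 central amygdala and intercalated cell markers, 3 of 7 choroid plexus genes (median -0.75) and 2 of 5 astrocyte genes, and of the 14 other striatal markers 3 were higher and 4 lower. The part of these lists in the result was not tested. Pairs of the 7 genes in VTA had r from -0.69 to 0.72 with a median of -0.11. Against the other striatal markers r was 0.49 for Rgs9 (rho 0.47), 0.47 for Gpr6 (0.44), 0.31 for Adcy5 (0.25) and -0.39 for Gnal (-0.34), with a permutation p of 1e-05, 1e-05, 0.00061 and 2e-05 (adjusted 1e-05, 1e-05, 0.000743 and 3e-05). Without the 2 farthest libraries these were 0.50, 0.46, 0.32 and -0.36, but within the number series they ran from -0.39 to 0.78, -0.20 to 0.59, -0.06 to 0.50 and -0.56 to 0.31, so no relation held in all series. The other three genes had r between 0.01 and 0.06 (p of 0.505 to 0.919). The genes most like their mean, Kalrn (r = 0.73), Shank2 (0.72), Chd3 (0.70), Pcnx (0.70) and Gabbr2 (0.70), included no striatal marker.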

How the data were processed

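Counts per gene were deposited by the authors as 1 table of whole reads for 43346 genes and 454 libraries; per the labels' protocols, polyadenylated RNA (TruSeq Stranded mRNA kit) was sequenced as single-end reads in pools of 21. The submitters' processing notes name STAR, featureCounts, limma and the builds GRCm38 and mm10; the sources used here give no versions, annotation release or strand setting. Groups came from the labels. Symbols were matched by Ensembl identifier (42462 of 43346 genes), with coordinates from GENCODE on GRCm38.

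The 7 genes and all gene lists were chosen with earlier results of these data known. Each region was fitted alone with edgeR 4.0.16 (quasi-likelihood test, TMM, group means for 16 groups, low-count filter, Benjamini-Hochberg adjustment over all genes tested, threshold 0.05) in R 4.3.3. Regions were compared in 1 fit over all libraries. Alternatives were relative log expression factors, no filter, leaving libraries out, number series or striatal marker level as a term, limma voom (limma 3.58.1) and DESeq2 1.42.0. Log2 CPM used a pseudocount of 0.05. All 7 genes were named, with up to 4 genes of a list by lowest p in the comparison and the 5 most like the 7 genes in each region. The slope of Drd1 was named beyond that rule, after its values were seen. A gene that the rule also names is not reported here. In data simulated from the chronic cocaine comparison, changes of 0.5 on the log2 scale were called for 76 of 99 genes in Nac and 88 of 100 in PFC, and changes of 1 for 98 of 100 and 98 of 99. Of the unchanged genes, 4 in Nac and 8 in PFC were called. The changed genes were drawn at random, without number series or shared tissue content. These rates do not hold for each member: in PFC the chronic cocaine SE was 0.34 for Adora2a and Gpr6.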

Additional observations from a re-analysis of the deposited data

Results flagged for a closer look

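Of 448 combinations of a gene and a group, 58 held a library whose distance from its nearest neighbour was a large part of the group's range (Dixon's criterion). By region these were 17 (AMY), 8 (Nac), 18 (PFC) and 15 (VTA). A chance rate of about 1 in 20 holds for normally distributed values. The criterion was applied to CPM, which can be strongly skewed: Adora2a in PFC had a median of 2.75 and a maximum of 77.1. Genes that moved together, as in Nac and PFC, are also not independent. The counts are therefore not read against that rate. High libraries of the same group can hide each other, and none of the isolated males with chronic cocaine in PFC was flagged. Each value below is followed by the median of the other libraries of its group, both in CPM.

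In PFC all 18 were high, in 9 libraries. The library of group-housed females with acute saline, replicate 5, held 29.8 of Adora2a (others 2.09), 11.7 of Gpr6 (0.973), 161.2 of Ppp1r1b (42.2), 81.7 of Rgs9 (27.7), 251.1 of Pde10a (102.2) and 346.5 of Adcy5 (225.3). That of group-housed males with chronic saline, replicate 4, held 31.6 of Adora2a (4.78), 255.8 of Pde10a (111.8) and 346.6 of Gnal (194.3). Both had received saline. Adora2a was 34.2 (2.23) in isolated females with acute saline, replicate 5, and 6.02 (2.02) in isolated males with chronic saline, replicate 4. Adora2a and Gpr6 were 9.45 (2.97) and 5.07 (1.21) in isolated females with chronic cocaine, replicate 2, and 6.19 (2.43) and 3.35 (1.35) in group-housed females with acute cocaine, replicate 4. Ppp1r1b was 145.5 (66.4) in group-housed males with chronic cocaine, replicate 7, and 71.6 (46.7) in group-housed males with acute saline, replicate 7, and Gnal was 262.9 (188.4) in group-housed females with chronic cocaine, replicate 2.

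In AMY the isolated male with chronic cocaine, replicate 1, held 38.9 of Adora2a (3.17), 7.64 of Gpr6 (2.17), 180.9 of Ppp1r1b (40.4), 74.4 of Rgs9 (33.2) and 219.2 of Pde10a (74.6). Adora2a was also high in isolated females with acute cocaine, replicate 6, at 36.3 (6.12), in group-housed males with acute cocaine, replicate 4, at 25.2 (3.96), and in isolated males with acute cocaine, replicate 4, at 10.6 (1.64). Gpr6 was high at 4.84 (2.49) in the first of these, at 5.34 (2.19) in isolated females with chronic cocaine, replicate 4, and at 5.22 (2.81) in group-housed males with chronic saline, replicate 7, the latter pair also with Pde10a at 153.8 (76.1) and 97.7 (79.7). Ppp1r1b was 65.1 (34.0) in group-housed females with acute saline, replicate 5. Low values were Adcy5 at 203.6 (298.3) in group-housed males with acute cocaine, replicate 1, and at 237.7 (294.1) in isolated females with acute saline, replicate 2, and Rgs9 at 21.0 (33.0) in isolated males with acute saline, replicate 1; the last 2 libraries are among those whose overall profile or choroid plexus genes stood apart.

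In Nac the library of group-housed females with chronic cocaine, replicate 2, was low for Adora2a at 134.7 (346.4), Gpr6 at 46.9 (109.5), Ppp1r1b at 459.1 (1204.4) and Adcy5 at 921.3 (1783.0). It is also the one with 8.1% of transcripts of the other sex. The library of isolated females with chronic saline, replicate 6, had Adora2a at 510.1 (275.1) and Ppp1r1b at 1986.5 (930.3), yet Gnal at 479.1 (901.7). Rgs9 was 450.5 (279.4) in isolated males with acute cocaine, replicate 4.

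In VTA the isolated female with acute cocaine, replicate 8, held 7.59 of Adora2a (1.72) and 80.9 of Ppp1r1b (22.3). Ppp1r1b was also high in isolated males with acute cocaine, replicate 7, at 57.6 (21.6), and in group-housed males with acute saline, replicate 2, at 39.2 (19.3); these 3 libraries are among those whose overall profile or choroid plexus genes stood apart. Further Ppp1r1b values were 33.6 (21.1) in group-housed males with chronic cocaine, replicate 3, and 24.4 (18.8) in group-housed females with acute saline, replicate 4. Adora2a was 3.12 (1.86) in group-housed females with chronic cocaine, replicate 5, and 3.27 (1.67) in those with chronic saline, replicate 2. Gpr6 was 4.21 (1.55) in group-housed males with acute cocaine, replicate 7, and 1.74 (0.862) in isolated males with chronic cocaine, replicate 4, and Adcy5 was 219.2 (198.2) in replicate 5 of the latter group. Pde10a was low at 53.2 (75.7) in group-housed females with chronic saline, replicate 8, at 51.8 (71.4) in isolated females with chronic cocaine, replicate 3, and at 25.5 (72.7) in isolated males with chronic saline, replicate 2, where Gnal was also low at 146.3 (235.4).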

How the results depend on the processing

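The 21 regional differences kept their direction and their call under each of the settings run for them. In PFC the members called for chronic cocaine numbered 5 over all mice and 6 in isolated mice. These fell to 3 and 3 with no filter on low counts, to 2 and 2 with limma voom, and to 0 and 0 with the number series as a term, with the striatal marker level as a covariate and without both high libraries. Series 1200 alone gave 0 over all mice, beside 1 of 17465 genes. Leaving out each isolated-male library of the chronic schedule in turn gave 0 to 6 over all mice, 0 to 6 in isolated mice and 4 to 7 of 7 in isolated males, where leaving out both high libraries gave 0. Over all mice, these single omissions left 702 to 1577 of all genes called. With the striatal covariate, Gpr6 and Ppp1r1b reversed to -0.09 and -0.03 over all mice and to -0.07 and -0.02 in isolated mice. The correlations with striatal markers in PFC series 500 reversed to -0.16 for Pde10a, -0.17 for Adcy5 and -0.38 for Gnal. With the number series as a term the schedule called 0 in Nac (3 before) and 1 in VTA (3 before). In Nac it called 2 with no filter, Rgs9 being lost. In VTA, 1 member (Rgs9) was called for acute cocaine in series 1000 alone, beside 486 of 17091 genes, and all genes called in series 1100 alone numbered 0. Rgs9 was also called for the housing difference of the acute response with the striatal covariate, beside 943 of 17144 genes. Both counts of members were 0 before. The cause was not tested for any of these.

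Pairing was checked because title numbers recur across regions (86 of 129 in all 4). Deviations from group means of same-numbered libraries had a median r between 0.007 and 0.049, from -0.26 to 0.572, so the numbers were not taken to pair libraries. A limma voom fit with the title number as a replicate block called 7 of 7 genes in each regional comparison, with Adora2a at 5.44 against AMY. The same fit called 8571, 8953 and 8538 of 18627 genes higher in Nac than in AMY, PFC and VTA. A call there does not set the members apart. An edgeR fit with the block was planned and not completed. Within a region no number recurs, so no paired analysis of treatment was possible. The limma voom block fit and the fits without single isolated-male libraries, without both high libraries, within single series and without the other-sex libraries were chosen after seeing the data.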
